A study of Homo sapiens with 6 samples.

Results

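The mRNAs of the cytosolic ribosomal proteins were followed through an RNA immunoprecipitation (RIP) experiment on the cytoplasmic poly(A)-binding proteins PABPC4 and PABPC1. They were taken by gene symbol from both deposited tables, with pseudogenes left out. This gave 86 of 58302 genes, made up of 32 of the small ribosomal subunit with FAU and RPSA, 46 of the large subunit with the stalk proteins RPLP0, RPLP1 and RPLP2, and 8 paralogs. Reads were found for 84 of them, while RPL10L and RPL39L had none.

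All libraries came from HepG2, an established human hepatocellular carcinoma cell line. The groups were 2 PABPC4 RIP libraries from cells overexpressing PABPC4, 2 PABPC1 RIP libraries from cells overexpressing PABPC1, and 2 libraries pulled down with rabbit IgG, of which the labels give 1 to each overexpressing population. No group came from cells without an overexpressed protein, and the labels do not say how overexpression was achieved. The pulled-down RNA was sequenced with a randomly primed library kit.

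Ribosomes need their proteins in near equal amounts, and the mRNAs of these proteins are short, abundant and heavily translated. In vertebrates these mRNAs begin with a C followed by a run of pyrimidines, the 5′ terminal oligopyrimidine (TOP) motif, through which LARP1 and the kinase mTOR control their translation and stability together. Poly(A)-binding proteins coat the mRNA tail, and PABPC1 is known to bind LARP1.

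Listed transcription starts were read from RefSeq (GRCh38.p14), in which 69 of the 86 genes had a window. The motif searched was a C at the listed start followed by at least 4 more bases that are C or T, on the sense strand alone. It was present in 48 of these 69 genes (69.6%), against 1404 of 27305 genes with a window (5.14%). Apart from the paralogs it was found in 47 of 63 genes, and among the paralogs in 1 of 6, RPL22L1. The runs were 5 to 19 bases long, with a median of 8. The windows below start 10 bases before the listed start and run 20 bases from it, 5′ to 3′, with the run in capitals. RPS6, RPS24 and RPL35 are shown as examples with the motif whose mRNAs were called higher for both PABPC4 and PABPC1. RPL18 is shown for its low PABPC4 ratio, and the pairs that follow set a ribosomal protein gene beside its paralog.
RPS6 (chr9:19380217-19380246, minus strand): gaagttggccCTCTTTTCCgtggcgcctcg
RPS24 (chr10:78033853-78033882, plus strand): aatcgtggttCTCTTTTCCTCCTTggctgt
RPL35 (chr9:124861938-124861967, minus strand): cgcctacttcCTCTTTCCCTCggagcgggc
RPL18 (chr19:48619159-48619188, minus strand): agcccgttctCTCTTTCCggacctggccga
RPL22 (chr1:6199576-6199605, minus strand): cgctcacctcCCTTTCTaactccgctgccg
RPL22L1 (chr3:170870176-170870205, minus strand): ccgtagcttcCTCTCTgctctcgcggccga
RPS27 (chr1:153990752-153990781, plus strand): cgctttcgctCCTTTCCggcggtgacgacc
RPS27L (chr15:63157458-63157487, minus strand): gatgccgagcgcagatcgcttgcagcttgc
RPL26 (chr17:8383174-8383203, minus strand): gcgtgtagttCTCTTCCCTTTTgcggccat
RPL26L1 (chr5:172958719-172958748, plus strand): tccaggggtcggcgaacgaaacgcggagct
RPL36A (chrX:101391001-101391030, plus strand): ctcgcggtttCTTTCTTTCCgcgccgatag
RPL36AL (chr14:49620607-49620636, minus strand): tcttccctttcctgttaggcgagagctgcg
RPL18, whose mRNA had the lowest PABPC4 ratio to IgG among members with at least 20 reads in PABPC4 RIP and IgG together, had the motif as had RPS6, RPS24 and RPL35, whose mRNAs were called higher. The windows of RPL3, RPL4, RPL6, RPL10A and RPL19, whose mRNAs were also called higher for PABPC4, had no match. No match says only that the listed start itself is not such a C and run. A pyrimidine run can lie elsewhere in the window, as it does downstream of the start in RPL4 and RPL10A.

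The deposited tables give folds and p-values, from which whole reads per library were recovered. The libraries of each antibody are called A and B, since their replicate numbers are not known. They held 850190 and 841327 reads for PABPC4, 289217 and 277552 for PABPC1, and 133030 and 94235 for IgG. Nuclear-encoded genes took 80.3% of PABPC4, 57.3% of PABPC1 and 41.1% of IgG reads, so that values scaled to total reads were higher in the RIPs for most nuclear genes. Levels are given as CPM, the reads on a gene scaled to the total reads of its library. PABPC4 mRNA had 162 and 183 CPM in PABPC4 RIP, 111 and 155 in PABPC1 RIP, and 75.2 and 42.4 in IgG. PABPC1 mRNA had 590.5 and 676 in PABPC4 RIP, 595 and 634 in PABPC1 RIP, and 286 and 318 in IgG. All 11 hepatocyte markers had reads, with 0.875% and 0.937% of PABPC4, 0.641% and 0.722% of PABPC1, and 0.412% and 0.400% of IgG reads. The labels do not say whether replicates came from separate cultures, so the spread within PABPC4 RIP and within PABPC1 RIP may be technical only. The IgG libraries came from different overexpressing populations, so their spread also holds that difference. Which of them is IgG A is not known. Each RIP was compared with both, so part of its control came from cells overexpressing the other protein. A p-value of a fit to single libraries reflects that spread. The p-values of the authors' deposited tables come from reads summed over libraries and reflect counting error only.

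Of all reads, the ribosomal protein mRNAs took most in PABPC4 RIP and least in IgG. With exact 95% binomial intervals, libraries A and B held 1.89% (1.87% to 1.92%) and 1.99% (1.96% to 2.02%) in PABPC4 RIP. The PABPC1 RIP libraries held 1.44% (1.40% to 1.49%) and 1.55% (1.51% to 1.60%), and the IgG libraries 1.11% (1.05% to 1.16%) and 1.152% (1.09% to 1.22%). The groups did not overlap. Of the reads on nuclear-encoded genes, counted over genes whose reads could be split by library, the order was the opposite. The PABPC4 RIP libraries then held 2.42% (2.39% to 2.46%) and 2.59% (2.55% to 2.63%), the PABPC1 RIP libraries 2.71% (2.63% to 2.79%) and 2.64% (2.56% to 2.72%), and the IgG libraries 2.86% (2.72% to 3.01%) and 2.83% (2.67% to 3.005%). The values again did not overlap between groups, although intervals did. The mean difference of PABPC4 from IgG was 0.811 percentage points of all reads and -0.342 percentage points of nuclear-encoded reads (n = 2 each). With 2 libraries against 2, the exact two-sided permutation test cannot give less than p = 0.333, which was its value in all 6 comparisons of shares (0.333 after Benjamini-Hochberg adjustment). Intervals here and below cover counting error only.

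**Figure D1:**
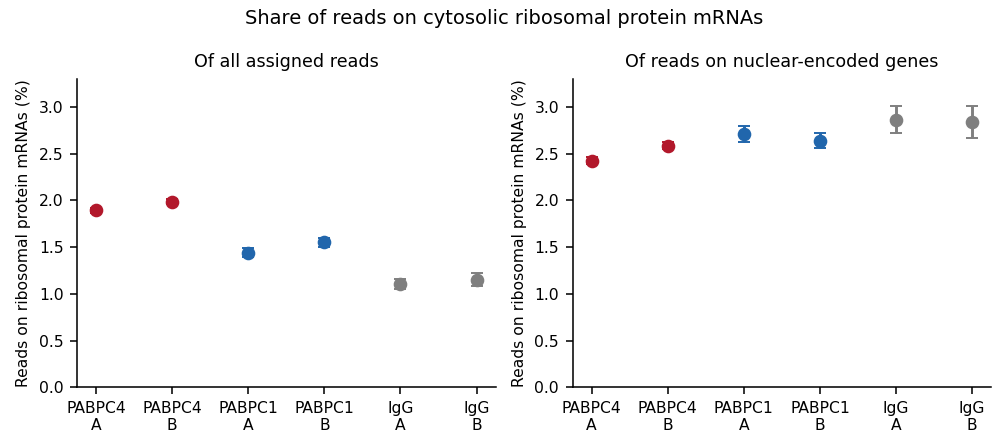
Share of reads on the ribosomal protein mRNAs in each library, in percent of all reads and in percent of reads on nuclear-encoded genes. Points are single libraries and bars exact 95% binomial intervals. PABPC4 RIP is highest by all reads, at 1.89% and 1.99%, and IgG is highest by nuclear-encoded reads, at 2.86% and 2.83%.

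In PABPC4 RIP against IgG, 25 of 84 ribosomal protein mRNAs passed an adjusted p of 0.05 as higher and 0 as lower in the authors' deposited table. Over all genes tested there, 5.54% were higher and 0.900% lower. Among 7977 genes with 10 or more reads in 2 or more libraries, 14.9% were higher, against 33.3% of 75 ribosomal protein mRNAs, and 0.552% were lower, against 0 of the 75. Calls went with depth, with 19 of 27 members called at 30 or more IgG reads, 5 of 29 at 10 to 29, and 1 of 28 below 10. Shares of all genes at these depths were not worked out. The shares of members and of all genes are thus not matched for depth, and an excess of members at equal depth was not tested. The size of the ratio gave another picture. The median ratio of PABPC4 RIP to IgG was 1.65 over 75 members with at least 20 reads, below the 1.97 of 8330 genes. Both PABPC4 libraries lay above both IgG libraries in 51 of 75 members (68%), against 73.3% of all genes in the fit. The deposited test sums the libraries and so leaves out the spread between them. The count was 11 without IgG A, where calls of all genes fell too, to 408 of 15092. Without each of the 4 libraries in turn 10 calls were kept, among them RPL3, RPL4, RPL5, RPL6, RPL13A, RPL22, RPL35, RPS6 and RPS24.

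Of the large subunit, 20 of 46 mRNAs were called. RPL5, which with RPL11 binds 5S rRNA and MDM2, had the lowest adjusted p. It had 1148 and 1178 CPM in PABPC4 RIP, 919.7 and 1048 in PABPC1 RIP, and 481 and 287 in IgG. Every RIP value lay above both IgG values, and the IgG libraries differed widely from each other. The ratio of PABPC4 RIP to IgG was 2.90 (95% interval 2.35 to 3.62), with an adjusted p of 1.26e-22 in the authors' deposited table.

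RPL22 had 467 and 435 CPM in PABPC4 RIP, 245 and 349 in PABPC1 RIP, and 143 and 117 in IgG. Its 3 groups did not overlap, and its PABPC4 ratio of 3.42 (95% interval 2.37 to 5.10) was the highest among members with at least 20 reads and a read in IgG. RPL38, which in mice is needed for translation of Hox mRNAs, had 172 and 151 CPM in PABPC4 RIP, 100.3 and 126 in PABPC1 RIP, and 22.6 and 95.5 in IgG. Its PABPC4 ratio was 3.06 (95% interval 1.72 to 5.99), on 3 and 9 IgG reads. RPL30, next in size at 3.02 (95% interval 0.790 to 25.7), had 26 and 19 reads in PABPC4 RIP, 2 and 4 in PABPC1 RIP, and 1 and 1 in IgG and was not called.

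RPL19, the member with most reads, had 1654 and 1613 CPM in PABPC4 RIP, 1065 and 1135 in PABPC1 RIP, and 1188 and 1209.7 in IgG. PABPC4 was highest and PABPC1 lowest, with no overlap, and the PABPC4 ratio of 1.36 (95% interval 1.204 to 1.55) was called although it lay below the median of all genes. RPL4, which lines the exit tunnel, had 1434 and 1462 CPM in PABPC4 RIP, 1062 and 1247 in PABPC1 RIP, and 917 and 806 in IgG. Its PABPC4 ratio was 1.66 (95% interval 1.44 to 1.93), and the order was PABPC4, PABPC1, IgG. RPL14 had 750.4 and 819 CPM in PABPC4 RIP, 667 and 749 in PABPC1 RIP, and 428 and 488 in IgG. The antibodies lay close together there, both above IgG, at a PABPC4 ratio of 1.73 (95% interval 1.42 to 2.14).

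RPL13A, known also from the GAIT complex of translational control, had 714 and 809 CPM in PABPC4 RIP, 512 and 504 in PABPC1 RIP, and 413 and 446 in IgG. RPL3, near the peptidyl transferase centre, had 601 and 622 CPM in PABPC4 RIP, 359.6 and 357 in PABPC1 RIP, and 308 and 233 in IgG. In both genes PABPC1 lay nearer to IgG than to PABPC4. Their PABPC4 ratios were 1.78 (95% interval 1.45 to 2.22) for RPL13A and 2.21 (95% interval 1.71 to 2.89) for RPL3.

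The other large subunit mRNAs called were RPL6, RPL10A, RPL11, RPL13, RPL23, RPL23A, RPL26, RPL28, RPL31, RPL35, RPL36 and RPLP2, with PABPC4 ratios from 1.63 for RPL23A to 2.94 for RPL36. RPL35 sits at the end of the exit tunnel, RPL23 at the face that eIF6 binds, and RPLP2 in the stalk that recruits elongation factors. RPL26 was the last to pass, at an adjusted p of 0.0499 in the authors' deposited table.

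Of the small subunit, 5 of 32 mRNAs were called. RPS6, the substrate of the S6 kinases, had 1234 and 1214 CPM in PABPC4 RIP, 982 and 850.3 in PABPC1 RIP, and 662 and 562 in IgG, a PABPC4 ratio of 1.97 (95% interval 1.66 to 2.36). RPS24, which is mutated in some families with Diamond-Blackfan anaemia, had 843 and 937 CPM in PABPC4 RIP, 619 and 638 in PABPC1 RIP, and 323 and 456 in IgG, a PABPC4 ratio of 2.35 (95% interval 1.89 to 2.96). In both the order was PABPC4, PABPC1, IgG with no overlap. Also called were RPS25, at 2.80 (95% interval 1.77 to 4.70), and RPS18, at 1.97 (95% interval 1.30 to 3.11).

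At the other end, 8 of 75 members had PABPC4 ratios below 1, and 0 of them were called. The lowest were RPL18 at 0.729 (95% interval 0.485 to 1.13), RPS2 at 0.779 (95% interval 0.636 to 0.963) and RPS20 at 0.796 (95% interval 0.439 to 1.56). RPL18 had 94.1 and 85.6 CPM in PABPC4 RIP, 86.4 and 101 in PABPC1 RIP, and 97.7 and 159 in IgG. RPS2, at the mRNA entry channel of the small subunit, had 388 and 366 CPM in PABPC4 RIP, 436 and 504 in PABPC1 RIP, and 451 and 531 in IgG. RPS20 had 50.6 and 40.4 CPM in PABPC4 RIP, 34.6 and 46.8 in PABPC1 RIP, and 67.7 and 42.4 in IgG. Both PABPC4 values lay below both IgG values for RPL18 and RPS2, and overlapped with IgG for RPS20.

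**Figure D2:**
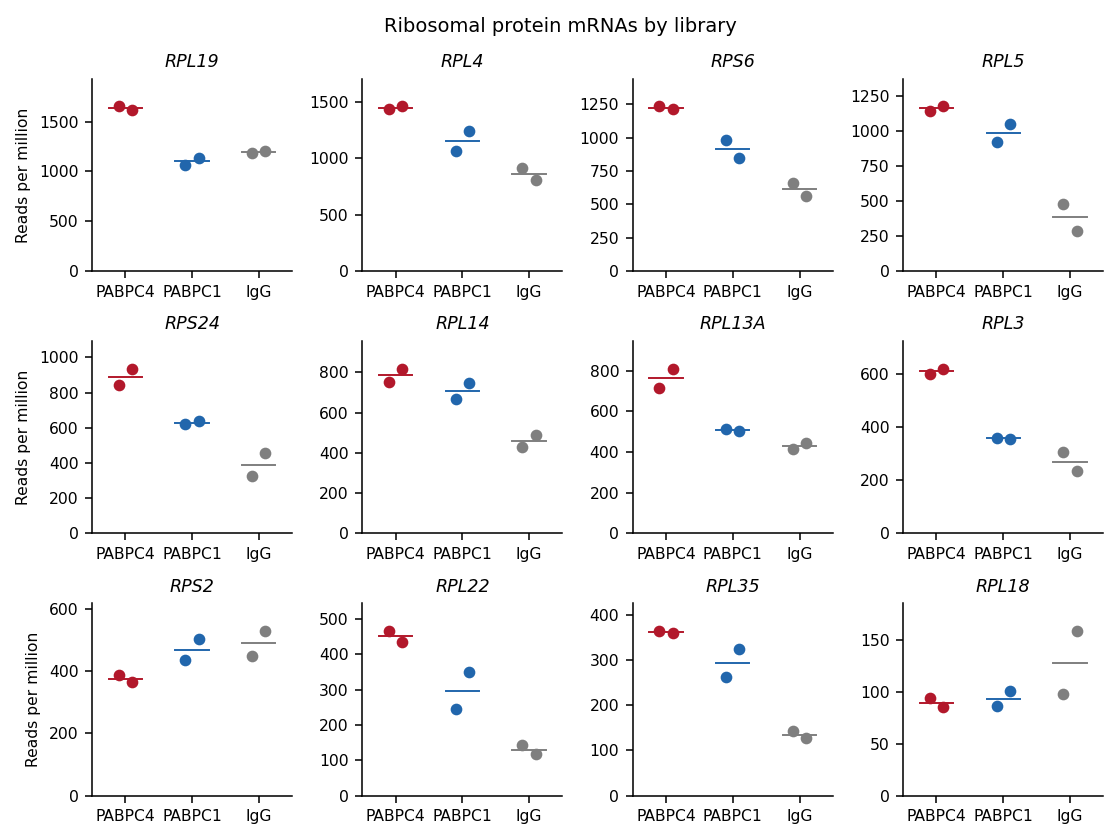
CPM of 12 ribosomal protein mRNAs in the PABPC4, PABPC1 and IgG libraries. Points are single libraries and lines the means of 2. RPL5 lies at 1148 and 1178 in PABPC4 RIP and at 481 and 287 in IgG, while RPS2 lies at 388 and 366 in PABPC4 RIP and at 451 and 531 in IgG.

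The plot of CPM by library shows these genes side by side, with PABPC4 above IgG in most panels. The plot of ratios to IgG gives each with its interval, and shows how wide the intervals of members with few IgG reads are.

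**Figure D3:**
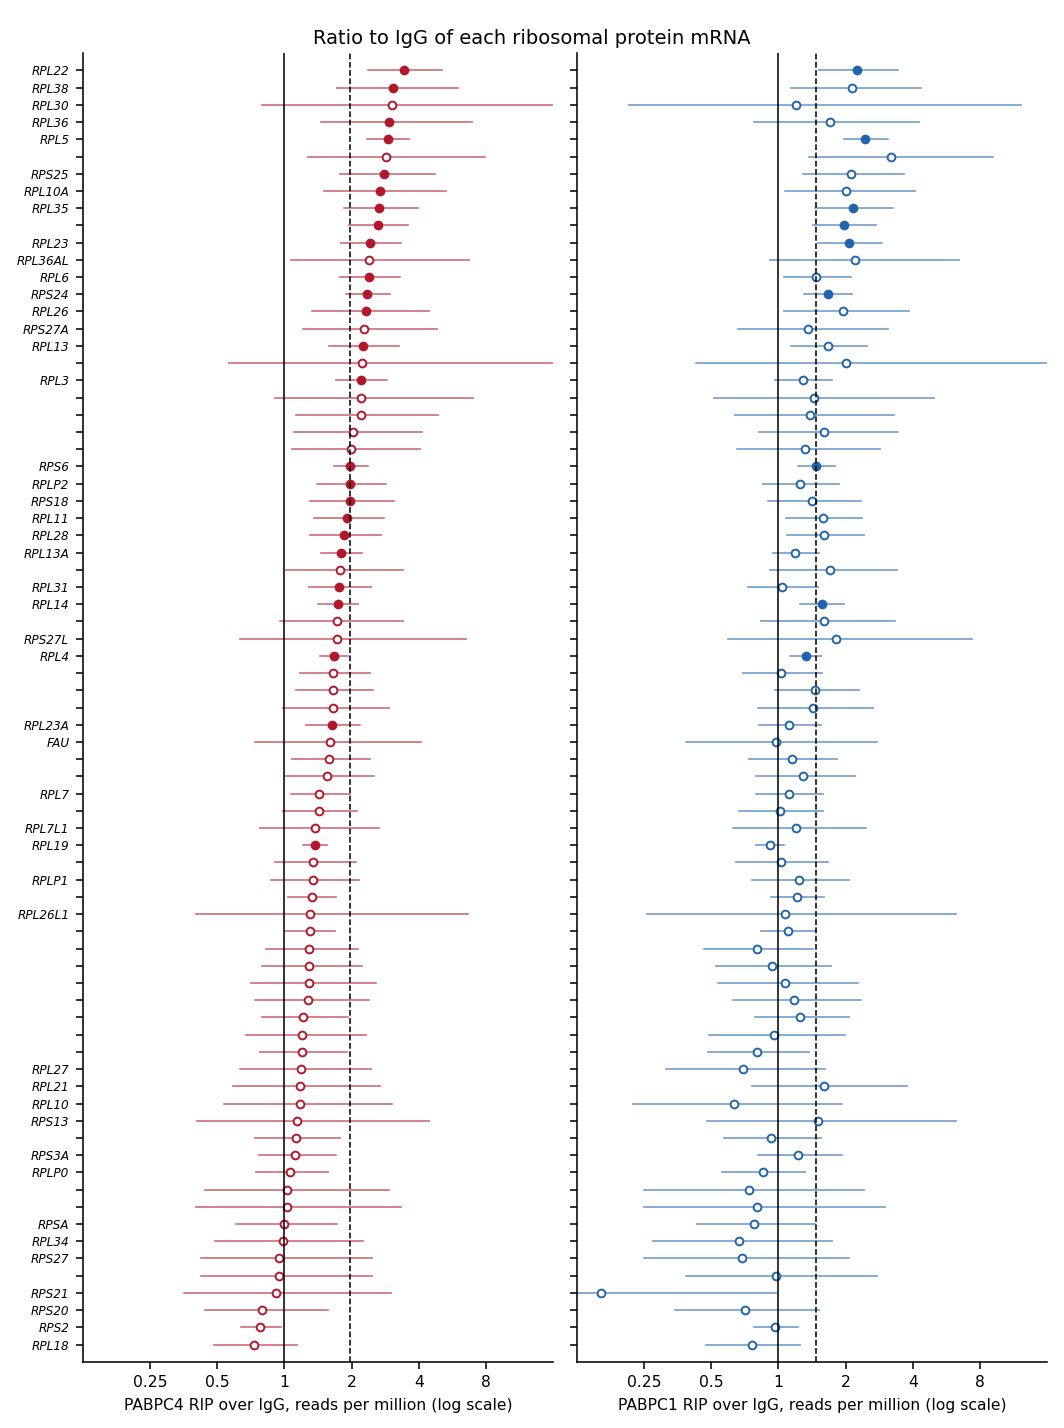
Ratio to IgG of each ribosomal protein mRNA, on a log axis, for PABPC4 RIP and PABPC1 RIP. Points are ratios, filled where called in the authors' deposited table, and bars 95% intervals, some cut at the axis ends. The dashed line is the median of all genes, 1.97 for PABPC4 and 1.48 for PABPC1, and the members' medians are 1.65 and 1.29. Genes that the text describes are labelled.

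In PABPC1 RIP against IgG, the authors' deposited table called 9 of 84 members higher and 0 lower, among them RPL4, RPL5, RPL14, RPL22, RPL23, RPL35, RPS6 and RPS24. Over all genes tested, 1.34% were higher and 0.194% lower. Among 7977 genes with 10 or more reads in 2 or more libraries, 2.93% were higher, against 12% of 75 members, and 0.288% were lower, against 0 members. All 9 were also called for PABPC4, in a comparison with the same IgG reads. The median ratio of PABPC1 RIP to IgG was 1.29 over 66 members, against 1.48 over 4493 genes. Both PABPC1 libraries lay above both IgG libraries in 32 of 75 members (42.7%), against 43.9% of all genes, and below them in 7 (9.33%), against 6.77%. The count was 1 without IgG A, 3 without IgG B and 3 without PABPC1 B, and RPL5 alone was kept without each library in turn. Calls of all genes fell too, to 49 of 15092, 94 of 15092 and 139 of 13838 in these 3 settings.

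For RPL5 the PABPC1 ratio was 2.45 (95% interval 1.96 to 3.10), with an adjusted p of 3.60e-13 in the authors' deposited table. RPL23 had 452 and 524 CPM in PABPC4 RIP, 349 and 494 in PABPC1 RIP, and 143 and 287 in IgG, with a PABPC1 ratio of 2.07 (95% interval 1.51 to 2.91). RPL35 had 365 and 360.1 CPM in PABPC4 RIP, 263 and 324 in PABPC1 RIP, and 143 and 127 in IgG, with a PABPC1 ratio of 2.15 (95% interval 1.46 to 3.26). RIP values of both antibodies lay above both IgG values in these genes. The PABPC1 ratio was 2.25 (95% interval 1.52 to 3.43) for RPL22 and 1.66 (95% interval 1.31 to 2.13) for RPS24. The last to pass was RPL4, at an adjusted p of 0.0438 in the authors' deposited table, and the first not to was RPS25, at 0.143.

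Among the members with at least 20 reads in PABPC1 RIP and IgG together, the lowest PABPC1 ratios were 0.668 (95% interval 0.274 to 1.73) for RPL34, 0.693 (95% interval 0.313 to 1.61) for RPL27 and 0.709 (95% interval 0.345 to 1.52) for RPS20, and each interval includes 1. RPL34 had 35.3 and 42.8 CPM in PABPC4 RIP, 10.4 and 43.2 in PABPC1 RIP, and 37.6 and 42.4 in IgG. RPL27 had 50.6 and 64.2 CPM in PABPC4 RIP, 41.5 and 25.2 in PABPC1 RIP, and 52.6 and 42.4 in IgG. The PABPC1 libraries of RPL34 differed from each other more than the groups did.

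Relative to the typical mRNA, most of these differences were no longer called. Median-of-ratios scaling centres each library on its typical gene, and limma voom fitted to the 6 libraries uses the spread between them. In PABPC4 RIP against IgG this fit called 1 of 75 members higher and 3 lower, against 2.43% and 1.64% of all genes. RPL5 was higher, with a log2 difference of 0.76 (adjusted p = 0.00854). RPS2 was lower, with -1.20 (adjusted p = 1.83e-06), as were RPL18, with -1.30 (adjusted p = 0.00583), and RPL19, with -0.38 (adjusted p = 0.0292). In PABPC1 RIP against IgG the fit called RPL5 higher, with 0.97 (adjusted p = 0.00519), and RPL19 lower, with -0.51 (adjusted p = 0.0283), against 0.552% and 0.414% of all genes. RPL19 was thus called higher for PABPC4 by CPM and lower relative to the typical gene.

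The median log2 ratio of the members moved with the scale. By CPM it was 0.72, 0.37 and 0.35 for PABPC4 over IgG, PABPC1 over IgG and PABPC4 over PABPC1, against 0.97, 0.57 and 0.45 for all genes. With median-of-ratios scaling it was -0.11, -0.01 and -0.09, against 0.15, 0.18 and 0.00 for all genes. With totals of nuclear-encoded reads it was -0.25, -0.11 and -0.14, against 0.01, 0.09 and -0.04. The members lay below all genes in each comparison, by the same gap under each scale, since a scale shifts all genes alike. The comparisons share libraries and the gap was not tested.

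**Figure D4:**
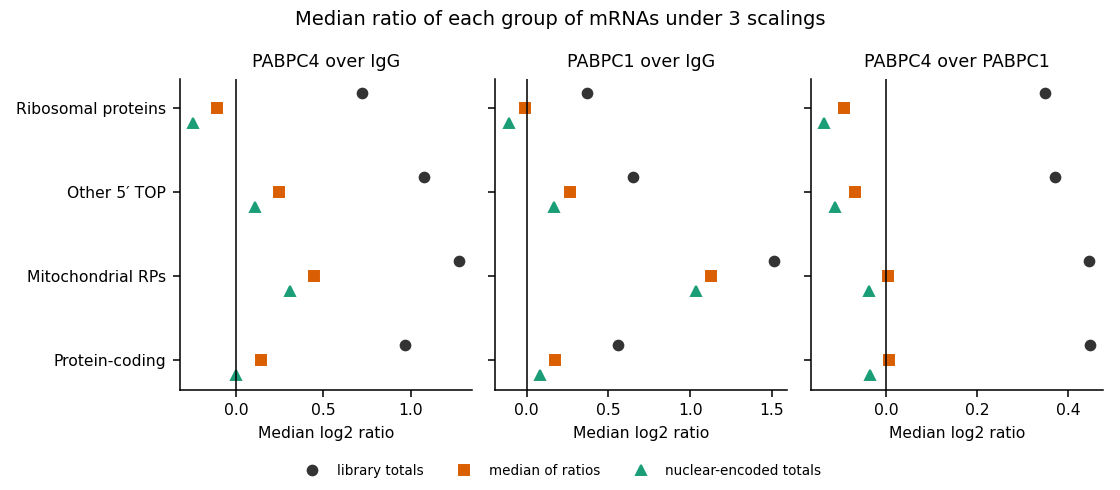
Median log2 ratio of 4 groups of genes in the 3 comparisons under 3 scalings, over genes with at least 20 reads. The ribosomal protein mRNAs lie at 0.72 for PABPC4 over IgG by CPM and at -0.25 with totals of nuclear-encoded reads, where protein-coding genes lie at 0.97 and 0.00.

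Between the antibodies, 1 ribosomal protein mRNA differed. Each antibody was used in cells overexpressing its own target, so antibody and cell population cannot be told apart in this comparison. In the limma voom fit of PABPC4 RIP against PABPC1 RIP, 0 of 75 members were higher and 1 lower, against 2.34% and 2.08% of all genes. At an unadjusted p under 0.05 the limma voom fit had 2 members higher and 9 lower of 75, against 8.56% and 7.84% of all genes. Limma trend on log2(CPM + 1) had 0 higher and 2 lower, against 3.62% and 2.29%. The gene called was RPS2, with a log2 difference of -0.76 (SE 0.123, 95% interval -1.01 to -0.51, adjusted p = 4.95e-05). Its PABPC4 values lay below all PABPC1 and IgG values, as given above. The call was lost without PABPC1 A, with -0.80 and an adjusted p of 0.171, and without PABPC1 B, with -0.72 and 0.239. These fits called 0.125% and 0.151% of all genes lower, and in them the lone PABPC1 library is assumed to vary like the other groups. Called lower were 2 of 67 members without PABPC4 A, against 4.73% of all genes, and 6 of 67 without PABPC4 B, against 6.75%. Without IgG A or IgG B, 3 of 75 were called lower, against 2.82% of all genes in both. Next in rank were RPL14 at -0.30 (adjusted p = 0.0837), RPS3A at -0.58 (adjusted p = 0.0846) and RPL21 at -0.94 (adjusted p = 0.0884). Reads were also simulated with these library totals, from gene levels averaged over all groups, IgG included, and a spread set by hand. Over 7186 genes, the fit then recovered 25% of genes changed by a log2 value of 1 and 88.6% of those changed by 2. Smaller differences can thus be missed. The changed genes were drawn from all genes, so these rates are not those of the ribosomal protein mRNAs.

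With library totals as the scale, the same fit called 14 of 75 members higher in PABPC4 RIP (among them RPL3, RPL4, RPL6, RPL13A, RPL19, RPL22, RPL23A, RPL31, RPLP2, RPS6, RPS21 and RPS24) and 0 lower, against 13.8% and 0.689% of all genes. Both PABPC4 libraries lay above both PABPC1 libraries in 49 of 75 members (65.3%), against 57.4% of all genes.

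**Figure D5:**
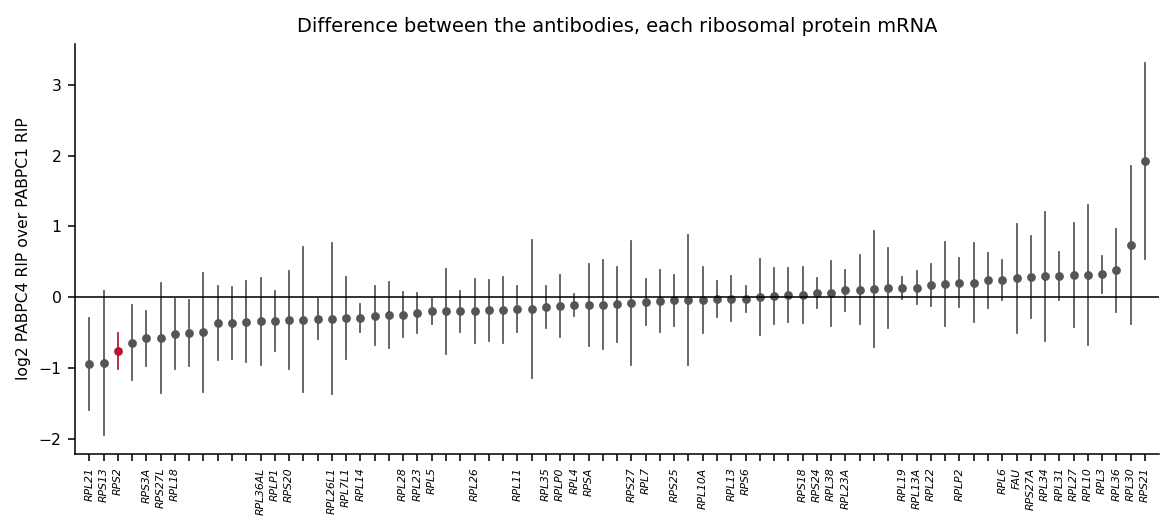
Log2 difference of PABPC4 RIP over PABPC1 RIP for 75 ribosomal protein mRNAs in the limma voom fit with median-of-ratios scaling, with 95% intervals. RPS2, at -0.76, is the gene past an adjusted p of 0.05 and is drawn in red. Genes that the text describes are labelled.

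The plot of differences between the antibodies shows the other 74 genes on both sides of 0. Among the members with at least 20 reads in both RIPs together, the highest ratios of PABPC4 RIP to PABPC1 RIP were 5.70 (95% interval 1.46 to 48.9) for RPS21, 3.52 (95% interval 0.860 to 30.9) for RPL17 and 2.51 (95% interval 1.07 to 7.21) for RPL30. RPS21 had 14 and 20 reads in PABPC4 RIP, 2 and 0 in PABPC1 RIP, and 3 and 2 in IgG. RPL17 had 13 and 8 reads in PABPC4 RIP, 1 and 1 in PABPC1 RIP, and 0 and 0 in IgG. The PABPC1 libraries held few reads in all 3 genes. RPS21 and RPL30 were not called, and RPL17, with 37.8% of the reads on it and its pseudogene copies falling on the copies, had too few reads for the fit. The lowest ratios among these members were 0.735 (95% interval 0.490 to 1.12) for RPL21, 0.759 (95% interval 0.403 to 1.501) for RPS13 and 0.782 (95% interval 0.282 to 2.48) for RPL35A. RPL21 had 35.3 and 58.2 CPM in PABPC4 RIP, 55.3 and 72.1 in PABPC1 RIP, and 52.6 and 21.2 in IgG. RPS13 had 24 and 10 reads in PABPC4 RIP, 10 and 5 in PABPC1 RIP, and 4 and 0 in IgG. RPL35A had 7 and 7 reads in PABPC4 RIP, 5 and 1 in PABPC1 RIP, and 2 and 0 in IgG. The antibodies overlapped in each of these.

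By subunit, the median PABPC4 ratio to IgG was 1.42 over 29 small subunit mRNAs and 1.69 over 42 large subunit mRNAs. The median PABPC1 ratio was 1.25 over 23 and 1.29 over 40. In the authors' deposited table for PABPC1, 3 of 32 small and 6 of 46 large subunit mRNAs were called. The difference between subunits was not tested. Of 21 members with a RefSeq window that were called for PABPC4 in the authors' deposited table, 16 began with the TOP run (76.2%). The share was 69.6% of all members with a window. Apart from the paralogs, of which 0 were called, it was 74.6%, close to that of the called members.

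The paralogs mostly had few reads, and 0 were called in either of the authors' deposited tables. Levels between genes are given as RPKM, which is CPM divided by the length of the authors' gene model in kilobases. RPL36AL exceeded its partner, with 84.7 ± 16.2 RPKM in PABPC4 RIP, 78.4 ± 25.7 in PABPC1 RIP and 34.4 ± 8.38 in IgG, against 0.893 ± 0.415 RPKM in PABPC4 RIP, 1.80 ± 1.31 in PABPC1 RIP and 0.948 ± 1.34 in IgG for RPL36A (SD, n = 2 each). As shown above, the listed start of RPL36A begins a run that meets the motif searched. That of RPL36AL does not, although it lies near the end of a run of pyrimidines. RPL36A overlaps the gene RPL36A-HNRNPH2, so its reads may be undercounted. In the other pairs the paralog had less. RPL22L1 had 4.07 RPKM in PABPC4 RIP, 4.55 in PABPC1 RIP and 2.28 in IgG, where RPL22 had 92.0 RPKM in PABPC4 RIP, 60.7 in PABPC1 RIP and 26.5 in IgG. RPL7L1 had 10.1 RPKM in PABPC4 RIP, 8.80 in PABPC1 RIP and 7.25 in IgG, where RPL7 had 104 RPKM in PABPC4 RIP, 81.0 in PABPC1 RIP and 71.6 in IgG. RPL26L1 had 14.7 RPKM in PABPC4 RIP, 12.1 in PABPC1 RIP and 11.02 in IgG, where RPL26 had 53.8 RPKM in PABPC4 RIP, 45.1 in PABPC1 RIP and 22.9 in IgG. RPS27L, a p53 target, had 3.31 RPKM in PABPC4 RIP, 3.49 in PABPC1 RIP and 1.82 in IgG, where RPS27 had 30.6 RPKM in PABPC4 RIP, 22.4 in PABPC1 RIP and 32.7 in IgG. RPL3L, known from striated muscle, had 5 and 0 reads in PABPC4 RIP, 2 and 0 in PABPC1 RIP, and 0 and 0 in IgG. RPL39 had 6 and 8 reads in PABPC4 RIP, 4 and 1 in PABPC1 RIP, and 1 and 2 in IgG, and RPL10 had 24 and 37 reads in PABPC4 RIP, 5 and 6 in PABPC1 RIP, and 1 and 6 in IgG.

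FAU, RPS27A and RPSA were not called in either of the authors' deposited tables. FAU, a fusion of a ubiquitin-like protein with RPS30, had 52.9 and 45.2 CPM in PABPC4 RIP, 38.0 and 21.6 in PABPC1 RIP, and 30.1 and 31.8 in IgG. RPS27A, a fusion with ubiquitin, had 99.98 and 99.8 CPM in PABPC4 RIP, 69.2 and 50.4 in PABPC1 RIP, and 30.1 and 63.7 in IgG. RPSA, known also as the laminin receptor, had 72.9 and 84.4 CPM in PABPC4 RIP, 69.2 and 54.0 in PABPC1 RIP, and 67.7 and 95.5 in IgG. PABPC4 lay above IgG for FAU and RPS27A, and overlapped with it for RPSA. Outside the group, RACK1, a scaffold on the small subunit, had ratios to IgG of 1.52 for PABPC4 and 1.30 for PABPC1. It was called for PABPC4 in the authors' deposited table (adjusted p = 0.0247).

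Levels per length differed widely. RPL19 had 689.8 ± 12.2 RPKM in PABPC4 RIP, 464 ± 20.9 in PABPC1 RIP and 506 ± 6.58 in IgG (SD, n = 2 each). RPS6 had 451 ± 5.28 RPKM in PABPC4 RIP, 338 ± 34.3 in PABPC1 RIP and 225 ± 25.8 in IgG. RPL5 had 402 ± 7.32 RPKM in PABPC4 RIP, 341 ± 31.5 in PABPC1 RIP and 133 ± 47.6 in IgG. RPL19 led in each group, and the next places differed: RPL5 stood below RPS6 in PABPC4 RIP by more than their spread, while in PABPC1 RIP the 2 genes did not differ beyond it. RPL13A, RPL4 and RPL35 followed in PABPC4 RIP, at 322, 257 and 236 RPKM. Over all members the mean in PABPC4 RIP ran from 0.893 to 689.8 RPKM with a median of 32.4. The lengths are those of the authors' gene models, 746 to 9743 nucleotides with a median of 2942, which lowers values of genes with long models. The 8 members with most reads held 43.9% of the members' reads in PABPC4 RIP, 43.2% in PABPC1 RIP and 42.9% in IgG. Across 75 members, Spearman's rho of the log2 ratio of PABPC4 RIP to IgG was 0.02 with length and 0.37 with reads over all libraries, a description over genes of the same libraries.

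Lists of related genes were read the same way. Of 36 other TOP mRNAs, the authors' deposited table called 17 higher and 1 (VIM) lower for PABPC4, and 8 higher for PABPC1. Over all genes tested, 5.54% were higher for PABPC4 and 1.34% for PABPC1, and among the 7977 genes with 10 or more reads in 2 or more libraries 14.9% and 2.93%. The TOP mRNAs' median ratio to IgG was 2.10 for PABPC4 and 1.57 for PABPC1, against 1.97 and 1.48 for all genes. EIF3A, a subunit of initiation factor 3, had 9140 reads in PABPC4 RIP, 1430 in PABPC1 RIP and 400 in IgG. Its ratios to IgG were 3.07 for PABPC4 and 1.43 for PABPC1, and its log2 difference between the antibodies in limma voom was 0.65 (adjusted p = 2.43e-10). EEF2, which drives translocation, had 2719 reads in PABPC4 RIP, 698 in PABPC1 RIP and 257 in IgG, and ratios of 1.42 for PABPC4 and 1.09 for PABPC1. In PABPC4 RIP against PABPC1 RIP, limma voom called EEF1A1, the factor that delivers aminoacyl-tRNA, lower at -0.50 (adjusted p = 8.61e-04). Also lower were EIF4B at -0.41 (adjusted p = 0.00163), PABPC1 at -0.40 (adjusted p = 0.0208) and HNRNPA1 at -0.31 (adjusted p = 0.0204). PABPC1 was the protein overexpressed in the cells of the PABPC1 RIP.

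Of 17 regulators of TOP mRNAs, CNBP and EIF4G1 were higher for PABPC4 and CNBP for PABPC1 in the authors' deposited tables. Among all genes with 10 or more reads in 2 or more libraries, 14.9% were higher for PABPC4 and 2.93% for PABPC1. CNBP, which binds the leaders of TOP mRNAs, had 639 reads in PABPC4 RIP, 443 in PABPC1 RIP and 13 in IgG, and ratios of 6.60 for PABPC4 and 13.7 for PABPC1. Its log2 difference between the antibodies in limma voom was -1.50 (adjusted p = 4.13e-13). LARP1 had 333 reads in PABPC4 RIP, 73 in PABPC1 RIP and 27 in IgG and was not called. Of 33 escort and assembly factors, BCCIP, LTV1, MDM2, MDN1 and TSR1 were higher for PABPC4 in the authors' deposited table, and 0 of 32 for PABPC1. For PABPC4 this stands against 5.54% of all genes tested and the 14.9% among genes with 10 or more reads in 2 or more libraries. MDN1, an ATPase of large subunit assembly, had a log2 difference of 0.88 (adjusted p = 0.0140) between the antibodies in limma voom. Of the mitochondrial ribosomal protein mRNAs, 5 of 77 were higher for PABPC4 and 1 of 74 for PABPC1 in the authors' deposited tables, against 5.54% and 1.34% of all genes tested, with a median PABPC4 ratio of 2.42 over 47 genes.

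Ribosomal protein genes have many processed pseudogenes, of which 231 of 964 had reads. The authors' deposited values called 0 of 216 for PABPC4, and the authors' deposited table for PABPC1 called 0 of 123. Over all genes tested, 5.54% were higher for PABPC4 and 1.34% for PABPC1. Few pseudogenes had many reads, and only 12 had enough for the limma voom fit. Calls at equal depth were not tested. The median PABPC4 ratio to IgG was 2.20 over 15 pseudogenes with at least 20 reads, against 1.65 over 75 members. For RPL5, 14 of 35 copies held 270 reads in PABPC4 RIP, 85 in PABPC1 RIP and 19 in IgG. With these added, the RPL5 ratio was 2.73 for PABPC4 and 2.34 for PABPC1. The share of reads on copies was up to 53.6%, and was 46.7% for RPS10, 37.8% for RPL17, 27.9% for RPL21 and 27.3% for RPSA, so values of such genes are uncertain. Reads on genes that overlap members were few, with 1 on RPS10-NUDT3 and 1 on RPL34-AS1, both in PABPC4 RIP. RPL36A-HNRNPH2 and RPL17-C18orf32 had 0. How reads with several matches or on overlapping genes were counted, and whether strand was used, is not stated by the labels or headers. Reads shared with an overlapping gene may thus be missing from RPS10, RPL17, RPL34 and RPL36A, which was not tested.

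RNA of other cell types was also measured. All 11 blood markers had reads, with 0.0747% and 0.0592% of PABPC4, 0.129% and 0.143% of PABPC1, and 0.359% and 0.367% of IgG reads. HBB, the beta chain of haemoglobin, had 511 reads in PABPC4 RIP, 434 in PABPC1 RIP and 503 in IgG. Most blood marker reads fell on HBB, HBA1 and HBA2, with PABPC4 ratios to IgG of 0.136, 0.191 and 0.128. The markers did not all go this way: PTPRC lay at 0.102, but LYZ at 1.00 and CD74 at 1.09. All 8 fibroblast markers had reads, with 0.00271% and 0.00155% of PABPC4, 0.00588% and 0.00504% of PABPC1, and 0.0226% and 0.0180% of IgG reads. HBD, LUM and PDGFRB had 0 reads in IgG. Summed over each list, blood and fibroblast shares were highest in IgG, and their part in the ratios to IgG was not tested.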

How the data were processed

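HepG2 RIP-seq libraries were compared, 2 each for PABPC4, PABPC1 and IgG. The authors deposited 2 tables that give, per the file headers, a fold (a linear ratio of RIP over IgG), a p-value and a Benjamini-Hochberg adjusted p for each of 58302 genes. Per the submitters' processing notes, featureCounts 2.0.1, STAR 2.7.10a and Bowtie2 2.4.1 were used with the builds GRCh38 and hg38, in roles not stated. The deposited p-values equal those of a Yates-corrected chi-square on reads summed over libraries, and the deposited fold has 0.005 RPKM added to the IgG mean. Solving both gave whole reads for 22605 genes, split by library for 15092, and recomputed p-values differed from the deposited ones by at most 7.88e-11 in log ratio. Tested on simulated data, 5993 of 5993 sums and 5621 of 5621 splits came back right. Both tables use the same IgG reads, and 2 genes whose p is listed as 0, MT-RNR1 and MT-RNR2, were not recovered.

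Calls against IgG are the authors' adjusted p under 0.05. PABPC4 against PABPC1 was fitted with limma 3.58.1 (voom, R 4.3.3) on the recovered reads of all 6 libraries, with median-of-ratios scaling, over 7977 genes with 10 or more reads in 2 or more libraries, leaving 3 residual and 34.6 prior degrees of freedom. Adjusted p-values of log2 differences in the text are from this fit. Ratios carry exact 95% intervals. Members and lists were chosen with earlier results of these data known. Named genes were members called in either table or in the fit, the 8 with most reads, the 3 highest and lowest by each ratio among those with at least 20 reads, the first and last called, paralog pairs, FAU, RPSA, RPS27A and RACK1, and list genes called or with most reads. RPS3A and other genes next to a threshold were added as such. Some genes that this rule names are not reported here. Other scalings, tests and filters were tried, and each library was left out in turn.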

Additional observations from a re-analysis of the deposited data

Results flagged for a closer look

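RPS2 differed between the antibodies by the test of that difference itself. Its log2 value was -0.76 for PABPC4 RIP over PABPC1 RIP in limma voom (adjusted p = 4.95e-05). The antibodies were used in different overexpressing cells, which this test cannot tell apart from the antibody. Both PABPC4 libraries lay below both PABPC1 libraries. Under the 12 alternatives the value ran from -0.81 to -0.32. Its adjusted p was above 0.05 in 4 of them: 0.106 with library totals as the scale, 0.169 in limma trend on log2(CPM + 1), 0.171 without PABPC1 A and 0.239 without PABPC1 B.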

How the results depend on the processing

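No paired analysis was possible because the deposited tables carry no replicate numbers and the recovered libraries cannot be tied to them. The scale decided most calls. Members called higher in PABPC4 RIP against IgG were 25, and 2 with median-of-ratios scaling, 1 with nuclear-encoded totals, 1 with limma voom and median-of-ratios, and 11 to 27 with a library left out; members called lower were 0, then 3, 4 and 3 under these scalings. Calls of all genes as higher fell likewise, from 1188 to 169, 112 and 194, and to 408 without IgG A. Of all recovered genes, 191 of 21453 were called lower, then 396 of 21453, 427 of 21423 and 131 of 7977. For PABPC1 RIP against IgG, 9 were called higher, and 1, 1 and 1 under the same 3 settings and 1 to 8 with a library left out; called lower were 0, then 1, 1 and 1, and 1 (RPS21) with limma voom and library totals. Of all genes 235 were called higher, then 36, 26 and 44, and 49 without IgG A. Called lower for PABPC1 were 32 of 17563 recovered genes, then 52 of 17563, 73 of 17539 and 33 of 7977. With limma voom and library totals they were 29 of 7977. For PABPC4 RIP against PABPC1 RIP, 0 of 75 members were called higher, and 14 with library totals. Called lower was 1, and 0 with library totals, 2 with nuclear-encoded totals and 0 with limma trend. The count was 3 of 33 members with at least 10 reads in every library, and 3 of 75 with the 4 RIP libraries only. With a library left out it was 0 to 6. Of all genes, 187 of 7977 were called higher, and 1103 with library totals. Called lower were 166 of 7977, then 55, 186 and 0 with library totals, nuclear-encoded totals and limma trend. They were 91 of 622 with at least 10 reads in every library, and 232 of 7970 with the 4 RIP libraries only. Shares of all genes with a library left out are given above.

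The median log2 ratio was 0.72 for PABPC4 over IgG, -0.11 with median-of-ratios scaling, -0.25 with nuclear-encoded totals and 0.62 to 0.75 with a library left out. For PABPC1 over IgG it was 0.37, and -0.013, -0.11 and 0.33 to 0.40 under the same settings, with 0.31 over all members with a read on both sides. For PABPC4 over PABPC1 it was 0.35, and -0.094, -0.14 and 0.31 to 0.46. The share of reads was 1.94% in PABPC4 RIP, 1.496% in PABPC1 RIP and 1.13% in IgG. Pooled over libraries and all recovered genes, where the shares by library use genes that could be split, it was 2.42%, 2.61% and 2.74% of nuclear-encoded reads, 2.69%, 2.93% and 3.11% of protein-coding reads, and 2.02% and 1.56% in PABPC4 and PABPC1 RIP with pseudogenes added.

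Some genes called higher against IgG had a log2 ratio below 0 on another scale. For PABPC4, log2 ratios with nuclear-encoded totals were -0.031 for RPL11, -0.13 for RPL13A, -0.17 for RPL14, -0.52 for RPL19, -0.26 for RPL23A, -0.082 for RPL28, -0.16 for RPL31 and -0.23 for RPL4, and for PABPC1 -0.078 for RPL4. With median-of-ratios scaling they were -0.035 for RPL14, -0.38 for RPL19, -0.12 for RPL23A, -0.017 for RPL31 and -0.094 for RPL4. With limma voom they were -0.0071 for RPL13A, -0.049 for RPL14, -0.38 for RPL19, -0.14 for RPL23A, -0.039 for RPL31 and -0.090 for RPL4. Of the other values of single genes, 1146 kept direction and call, 123 lost a call, 29 gained one and 138 that were not called changed sign. The causes were not tested, beyond that each scale shifts all genes alike. Depth limits the ratios to IgG, since 28 of 84 members had fewer than 10 IgG reads.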
